A study of Mus musculus with 32 samples.

Results

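Dmbx1, En1, En2, Lmx1a, Lmx1b, Barhl1 and Barhl2 are homeobox genes that pattern the embryonic diencephalon and midbrain, and their expression is described here. They were taken by name, as 7 of the 55492 rows of the expression table. The set was chosen by the day 6 values of Dmbx1, which was among the genes with the largest excess in KO over WT. The WT and KO values of day 6 are therefore given as description, with no test. All 7 genes passed the filter on low values, which asked for at least 1 FPKM (fragments per kilobase of transcript, scaled to the mapped fragments of a library) in at least 2 libraries.

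Polyadenylated RNA was sequenced from mouse embryonic stem cells (day 0) and from retinal organoids grown from them for 2, 4 and 6 days. WT is the Rx:GFP line, KO is the Mettl3 KO line, and 2 further sets are the Mettl3 KO line carrying WTMETTL3-GRBD, without Dex (here "no Dex") and with Dex. Mettl3 encodes the catalytic subunit of the complex that places m6A on RNA, and Dex is dexamethasone, a synthetic glucocorticoid. By the design text, the fusion protein stays in the cytosol until Dex moves it into the nucleus. Dex was given at 10 µM, and the differentiation medium of all lines held AGN at 0.1 µM. Some stem cell libraries are labelled as Dex treated although the treatment protocol gives Dex for 2, 4 and 6 days, and the labels were followed. The fusion is overexpressed, and the labels do not say whether a line is 1 clone. Each of the 16 groups had 2 libraries, 32 in all. The labels do not say that duplicates were separate cultures, so p-values measure only the spread between these libraries, which may be technical.

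All 7 genes encode homeodomain transcription factors. Dmbx1 is a paired-class factor related to Otx2, expressed in the embryonic diencephalon and midbrain. En1 and En2, the engrailed genes, are repressors that act on both sides of the midbrain-hindbrain boundary, the isthmus. Lmx1a and Lmx1b are LIM-homeodomain factors of the roof plate and of midbrain dopaminergic progenitors, and Lmx1b also acts early at the isthmus. Barhl1 and Barhl2 are BarH-like factors of the diencephalon, dorsal midbrain and hindbrain, and Barhl2 is also used by retinal neurons.

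The 7 genes lie apart from each other in the genome, except that pairs share a chromosome. In GRCm38 (GENCODE M21), Dmbx1 (ENSMUSG00000028707) is at chr4:115915119-115939926 on the minus strand. En1 (ENSMUSG00000058665) is at chr1:120602418-120607992 and Lmx1a (ENSMUSG00000026686) at chr1:167689237-167848741, both on the plus strand. Lmx1b (ENSMUSG00000038765) is at chr2:33560965-33640511 and Barhl1 (ENSMUSG00000026805) at chr2:28907679-28916668, both on the minus strand. En2 (ENSMUSG00000039095) is at chr5:28165694-28172166 on the plus strand and Barhl2 (ENSMUSG00000034384) at chr5:106452523-106458166 on the minus strand. The gene models Gm43610 and Gm38011 overlap En2 and Lmx1b, respectively, on the opposite strand, and Gm38011 had a mean of 0 FPKM in all 16 groups. In stem cells Gm43610 had means of 2.19 FPKM in WT, 1.46 FPKM in KO, 0.43 FPKM without Dex and 0.14 FPKM with Dex. Whether the counting used strand is not given in the sources used here.

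RefSeq promoter entries (GRCm38.p6) were found for 6 of the 7 genes, as 7 windows. The 250 bases before the start are shown for Dmbx1, Barhl1 and Barhl2, genes that rose late in the cultures and whose RefSeq and GENCODE starts coincide. Each is written 5′ to 3′ on the gene's strand. Capitals would mark TAATTA (a homeodomain palindrome) or TAATCC (an Otx-type site), searched on both strands, and these 3 windows hold neither.
Dmbx1 chr4:115939927-115940176, minus strand: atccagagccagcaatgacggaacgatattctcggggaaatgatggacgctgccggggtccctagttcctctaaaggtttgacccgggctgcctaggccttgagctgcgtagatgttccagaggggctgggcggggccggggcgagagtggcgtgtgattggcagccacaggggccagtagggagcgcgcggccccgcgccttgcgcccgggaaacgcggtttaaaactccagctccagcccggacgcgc
Barhl1 chr2:28916669-28916918, minus strand: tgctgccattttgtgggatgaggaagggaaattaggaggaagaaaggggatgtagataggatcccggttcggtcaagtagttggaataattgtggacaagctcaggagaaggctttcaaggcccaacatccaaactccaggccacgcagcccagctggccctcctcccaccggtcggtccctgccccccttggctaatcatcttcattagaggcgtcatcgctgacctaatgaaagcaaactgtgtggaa
Barhl2 chr5:106458167-106458416, minus strand: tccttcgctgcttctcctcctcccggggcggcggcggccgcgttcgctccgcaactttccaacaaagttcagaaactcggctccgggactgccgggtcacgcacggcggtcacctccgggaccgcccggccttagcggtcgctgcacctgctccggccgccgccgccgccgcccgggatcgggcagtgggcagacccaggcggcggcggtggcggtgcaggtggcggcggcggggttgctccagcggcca
The Barhl2 window is the richest of the 7 in G and C, at 74.8%, with a CpG observed-to-expected ratio of 1.03. Dmbx1 has 65.2% and 0.88, and Barhl1 52.8% and 0.4, against medians of 52.4% and 0.37 over 32851 windows. Of the 7 windows 1 held a motif of the 4 searched, TAATCC in the second Barhl1 window (chr2:28912496-28912745), where its complement starts 53 bases before the start of transcription. TAATTA occurs in 4.8% of all windows and TAATCC in 6.3%. The other motifs searched were the TATA-box letters TATAAA, found in 12.4% of windows, and a glucocorticoid receptor site, AGAACA, found in 16.1%. No match says only that these letters are not in these windows. GGACT, a core form of the m6A consensus, occurs between 0.43 times per kb (Barhl2) and 2.45 times per kb (Barhl1) in the longest coding transcripts of the 7 genes. The median over 13583 tested protein-coding genes was 1.05 per kb, and 3 of the 7 genes lay above it.

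Depth, estimated from the steps between low values, ran from 28.5 to 55.5 M fragments per library. At that depth 3 fragments correspond to 0.01 to 0.019 FPKM for Dmbx1 and to 0.027 to 0.052 FPKM for Barhl2, the lowest and highest of the 7 limits. Duplicates correlated across genes at Pearson r from 0.9922 to 0.9955. The targeted gene, Mettl3, was called higher under the KO label at day 0 (log2 difference 0.30, adjusted p = 0.000417) and was not called at day 2 or 4, at 34.88 to 43.83 FPKM over all days against 32.51 to 41.21 FPKM in WT and 44.46 to 75.06 FPKM in the fusion line. The knockout is known here from the labels alone. Rax, which defines the eye field, was at a mean of 118 FPKM in WT at day 6 and at 0.3 FPKM in KO, and was at 31.1 and 1.21 FPKM at day 4. Pax6, which is not restricted to the eye, was at 112 FPKM in KO and 110 FPKM in WT at day 6. The 24 comparisons tested called from 26.7% to 67.9% of 16276 genes, so a call by itself is common here. A call is an adjusted p under 0.05 in limma with Benjamini-Hochberg adjustment over all tested genes, and every adjusted p below is of that kind. Differences are of log2(FPKM + 1), and the added 1 makes those of low genes too small.

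The 7 genes followed 3 time courses. Dmbx1, Lmx1a, Barhl1 and Barhl2 were low in stem cells and highest at day 6 in KO and in the fusion line. Lmx1b peaked at day 4 in all 4 cultures, and En1 peaked then in KO and in the fusion line, though not in WT. En2 was highest in stem cells. The plot of all libraries by day shows these courses.

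**Figure D1:**
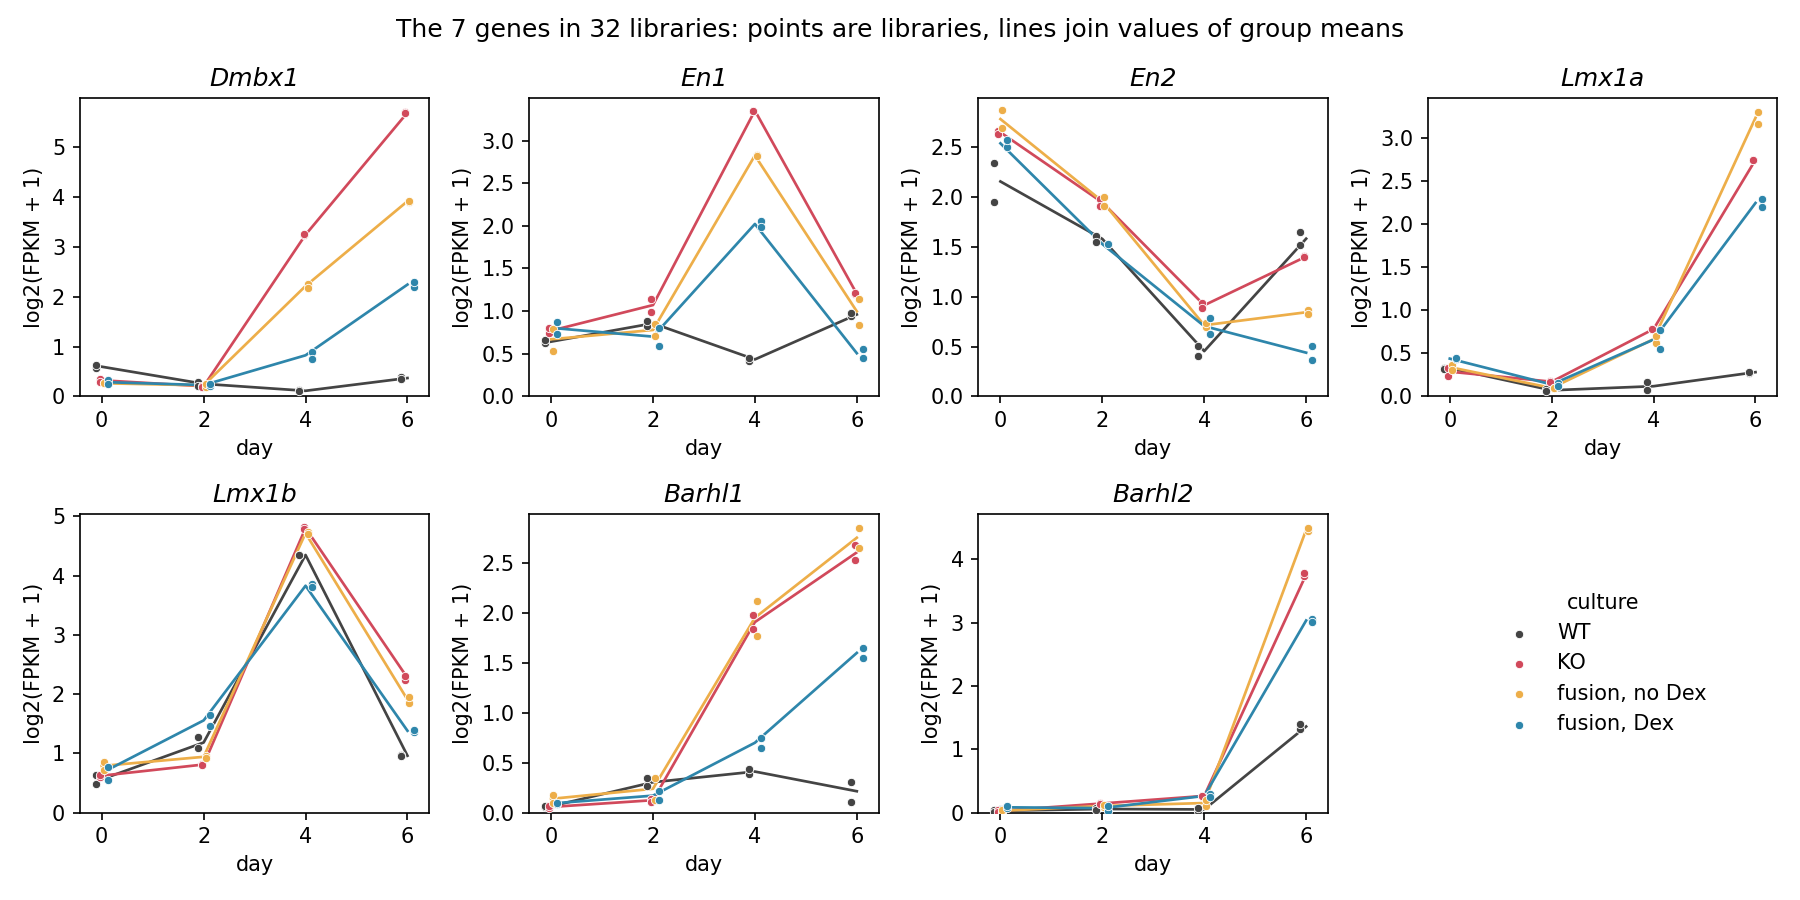
Each panel plots 1 gene, with log2(FPKM + 1) on the y axis and the day on the x axis; points are libraries (2 per group) and lines join the group means. Dmbx1 separates the 4 cultures at day 6, from 0.28 FPKM in the lowest WT library to 51.28 FPKM in the highest KO library, while Lmx1b peaks at day 4 in every culture.

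Dmbx1 was low in stem cells and rose from day 2 in every Mettl3 KO-derived culture, most in KO and least with Dex. In stem cells it was at 0.48 and 0.54 FPKM in WT, 0.28 and 0.22 FPKM in KO, 0.2 and 0.2 FPKM without Dex, and 0.25 and 0.19 FPKM with Dex. Both WT libraries lay above all 6 others. At day 2 all 8 libraries lay between 0.14 and 0.22 FPKM. At day 4 Dmbx1 was at 0.09 and 0.07 FPKM in WT, 8.4 and 8.55 FPKM in KO, 3.79 and 3.49 FPKM without Dex, and 0.85 and 0.69 FPKM with Dex. No 2 groups overlapped at day 4, and the order was KO, no Dex, Dex, WT. At day 6 it was at 0.3 and 0.28 FPKM in WT, 51.28 and 50.45 FPKM in KO, 13.98 and 14.22 FPKM without Dex, and 3.59 and 3.88 FPKM with Dex. The same order held, again with no overlap. Over all 16 groups the KO day 6 mean, 50.9 FPKM, was followed by no Dex at day 6 (14.1 FPKM) and KO at day 4 (8.48 FPKM). The next 2, Dex at day 6 and no Dex at day 4, overlapped.

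Lmx1a rose late and reached its highest level in the fusion line, not in KO. At day 4 it was at 0.12 and 0.05 FPKM in WT, 0.72 and 0.72 FPKM in KO, 0.54 and 0.63 FPKM without Dex, and 0.46 and 0.7 FPKM with Dex. At day 6 it was at 0.21 and 0.22 FPKM in WT, 5.73 and 5.72 FPKM in KO, 8.89 and 7.98 FPKM without Dex, and 3.9 and 3.6 FPKM with Dex. The day 6 groups did not overlap, while at day 4 the 3 KO-derived groups lay close together above WT, and Dex overlapped no Dex.

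Barhl1 began to rise by day 4 and Barhl2 almost only after it. Barhl1 at day 4 was at 0.31 and 0.35 FPKM in WT, 2.94 and 2.58 FPKM in KO, 2.41 and 3.34 FPKM without Dex, and 0.57 and 0.68 FPKM with Dex. At day 6 it was at 0.08 and 0.24 FPKM in WT, 4.79 and 5.42 FPKM in KO, 5.3 and 6.22 FPKM without Dex, and 2.14 and 1.93 FPKM with Dex. KO and no Dex overlapped on both days, with WT and Dex below them. Barhl2 stayed between 0.01 and 0.22 FPKM in all 24 libraries of days 0, 2 and 4, which in stem cells amounts to about 1 to 5 fragments a library. At day 6 Barhl2 was at 1.5 and 1.63 FPKM in WT, 12.36 and 12.69 FPKM in KO, 20.67 and 21.4 FPKM without Dex, and 7.3 and 7.06 FPKM with Dex. The 4 groups of day 6 did not overlap, and no Dex was highest, as for Lmx1a.

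Lmx1b was the member with the highest level in WT, and its peak at day 4 was shared by all cultures. It was at 19.33 and 19.39 FPKM in WT, 27.22 and 26.6 FPKM in KO, 25.6 and 24.94 FPKM without Dex, and 13.46 and 12.96 FPKM with Dex at day 4. No groups overlapped, and Dex was the only group below WT. By day 6 Lmx1b was at 0.96 and 0.93 FPKM in WT, 3.7 and 3.97 FPKM in KO, 2.62 and 2.88 FPKM without Dex, and 1.57 and 1.64 FPKM with Dex. In KO and the fusion line Lmx1b was thus highest at day 4 and its paralog Lmx1a at day 6, while Lmx1a stayed at or below 0.26 FPKM in WT. A noncoding gene, C130021I20Rik, is annotated on the opposite strand 682 bases from Lmx1b. Its day 4 means were 6.54 FPKM in WT, 6.43 FPKM in KO, 7.1 FPKM without Dex and 4.36 FPKM with Dex, each the highest of its culture. It was named after its values were seen.

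En1 peaked at day 4 as Lmx1b did, but not in WT. At day 4 it was at 0.33 and 0.37 FPKM in WT, 9.2 and 9.21 FPKM in KO, 6.14 and 6.03 FPKM without Dex, and 3.15 and 2.97 FPKM with Dex. These groups did not overlap, and at days 0, 2 and 6 all 24 libraries lay between 0.37 and 1.31 FPKM. En2 had the opposite course. In stem cells it was at 2.86 and 4.06 FPKM in WT, 5.35 and 5.21 FPKM in KO, 6.31 and 5.46 FPKM without Dex, and 4.67 and 4.96 FPKM with Dex. WT lay below the others, and the 2 WT libraries differed more than any other pair of that day. At day 4 all 8 libraries were between 0.32 and 0.92 FPKM, and at day 6 En2 was at 1.86 and 2.13 FPKM in WT, 1.65 and 1.64 FPKM in KO, 0.82 and 0.77 FPKM without Dex, and 0.29 and 0.42 FPKM with Dex. WT was thus the highest group at day 6, the reverse of Dmbx1.

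The first comparison asked how KO differed from WT before day 6. At day 0, 2 of 7 genes were called, against 48.2% of all tested genes: En2 was higher in KO (log2 difference 0.51 ± 0.10, SE, adjusted p = 0.000187) and Dmbx1 lower (-0.27 ± 0.05, adjusted p = 0.000298). En2 lost this call when the compared groups alone were fitted (adjusted p = 0.116). At day 2, 2 of 7 were called, against 58.9% of all genes, with En2 higher by 0.37 and Lmx1b lower at -0.37 on the log2 scale. At day 4 all 7 genes were higher in KO, against 60.5% of all tested genes called and 36.5% called higher. The median difference was 0.67 over the 7 genes and 0.06 over all genes. Dmbx1 had the largest difference, 3.13 ± 0.05 on the log2 scale (SE, adjusted p = 5.16e-19), a 106-fold ratio of mean FPKM. En1 followed with 2.92 ± 0.10 (adjusted p = 5.11e-15), a 26.3-fold ratio, and Barhl1 with 1.5 ± 0.10 (adjusted p = 2.07e-10). Lmx1a differed by 0.67, En2 by 0.46, Lmx1b by 0.45 and Barhl2 by 0.21 on the log2 scale. The Barhl2 difference rests on a WT level of 0.02 and 0.05 FPKM, about 2 and 4 fragments, and no ratio is given for it. In these bulk samples, fewer cells of a type and less RNA per cell cannot be told apart.

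At day 6, the contrast by which Dmbx1 was selected, the mean of Dmbx1 was 175 times higher in KO than in WT, a log2 difference of 5.33. Barhl1 was 31.9 times higher, Lmx1a 26.6 times, Barhl2 8 times, Lmx1b 4.06 times and En1 1.38 times, while En2 was at 0.825 times its WT level. The Barhl1 ratio rests on WT libraries of 0.08 and 0.24 FPKM: it was 63.8 without WT library 2 and 21.3, below that of Lmx1a, without WT library 1, a check added after the data were seen.

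The second comparison set the fusion line without Dex against KO, with KO libraries that the comparisons above also used. At day 0 none of the 7 genes was called by limma, against 49.1% of all tested genes, and 1 of 7 had an unadjusted p under 0.05. At day 2 En1 alone was called (-0.29 on the log2 scale, adjusted p = 0.0214), against 37.0% of all genes, and it lost the call with the compared groups alone (adjusted p = 0.103). At day 4, 2 of 7 were called, both lower without Dex, against 26.7% of all genes. Dmbx1 was lower (log2 difference -1.03 ± 0.05, SE, adjusted p = 1.3e-10), as was En1 (-0.53 ± 0.10, adjusted p = 0.000395). Lmx1b (-0.09) and Barhl1 (0.03) were not called. At day 6, as description, Dmbx1 was at 0.277 times and En2 at 0.483 times their KO means, while Barhl2 was at 1.68 times and Lmx1a at 1.47 times.

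The third comparison, Dex against no Dex in the fusion line, uses none of the libraries that chose the members. At day 0, 1 of 7 genes was called, against 43.4% of all tested genes, with En2 lower at -0.24 on the log2 scale (adjusted p = 0.0464), a call lost with a pseudocount of 0.1 (adjusted p = 0.165). At day 2, 2 of 7 were called, against 44.3% of all genes: Lmx1b was higher with Dex (0.61 ± 0.08, SE, adjusted p = 2.74e-06) and En2 lower (-0.43, adjusted p = 0.00108). At day 4, 4 of 7 were called, all lower with Dex, against 40.2% of all genes called and 21.9% called lower. Dmbx1 differed by -1.39 ± 0.05 on the log2 scale (SE, adjusted p = 3.99e-13), Barhl1 by -1.24 ± 0.10 (adjusted p = 1.43e-08), Lmx1b by -0.89 ± 0.08 (adjusted p = 2.64e-08) and En1 by -0.80 ± 0.10 (adjusted p = 1.58e-06). En2 and Lmx1a differed by -0.01 each and Barhl2 by 0.11, and none of these 3 was called. En2 and Lmx1a moved to 0 on rescaling.

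At day 6 all 7 genes were lower with Dex, against 42.7% of all tested genes called and 19% called lower. The median difference was -0.99 over the 7 genes and 0.01 over all genes, on the log2 scale. Dmbx1 again had the largest difference, -1.67 ± 0.05 (SE, adjusted p = 1.44e-14), a mean 3.78 times lower with Dex. Barhl2 differed by -1.43 ± 0.05 (adjusted p = 4.01e-14), 2.93 times lower, and Barhl1 by -1.15 ± 0.10 (adjusted p = 3e-08), 2.83 times lower. Lmx1a differed by -0.99, Lmx1b by -0.52, En1 by -0.48 and En2 by -0.41. En1 was no longer called when the compared groups alone were fitted (adjusted p = 0.0725), and its difference was then -0.48 again.

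**Figure D2:**
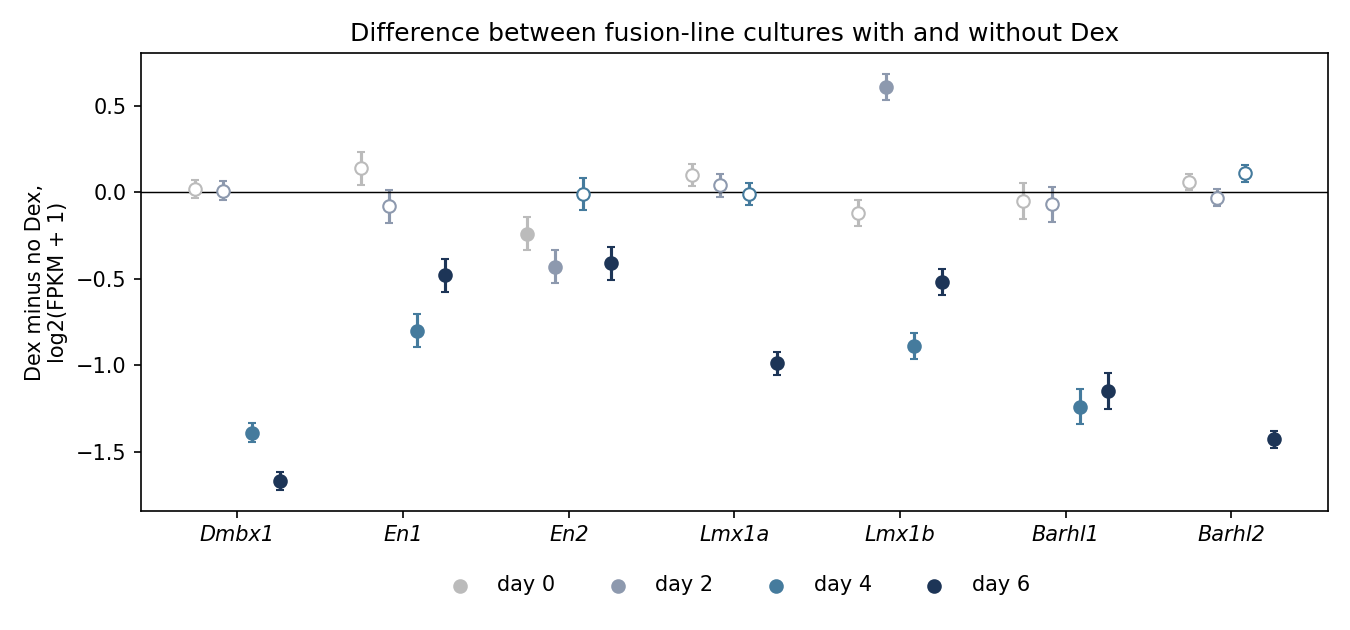
The y axis gives the difference Dex minus no Dex on the log2(FPKM + 1) scale for each gene on the x axis, with 1 point per day and error bars of 1 SE from limma; filled points had an adjusted p under 0.05. At day 6 all 7 points lie below 0, from -0.41 for En2 to -1.67 for Dmbx1, and at day 2 Lmx1b lies above 0 at 0.61.

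Whether the difference between Dex and no Dex itself changed from day 4 to day 6 was tested as an interaction, which called 5 of 7 genes, against 41.2% of all tested genes. It grew most for Barhl2 (-1.54 ± 0.07 on the log2 scale, SE, adjusted p = 4.02e-12) and Lmx1a (-0.98 ± 0.09, adjusted p = 8.51e-08), which were not called at day 4. Both were low in the fusion line at day 4, Barhl2 at means of at most 0.2 FPKM and Lmx1a of at most 0.585 FPKM. Such levels leave little room for a difference on this scale. A growing difference and a late rise of these genes therefore cannot be told apart. For Lmx1b the difference between Dex and no Dex shrank (0.36 ± 0.11, adjusted p = 0.0112), which was not called with a pseudocount of 0.1 (adjusted p = 0.507). It grew for Dmbx1 (-0.28) and En2 (-0.40), and the Dmbx1 value turned to 0.22 with that pseudocount (adjusted p = 0.414). The Dmbx1 call was also lost with the compared groups alone (adjusted p = 0.0723). En1 (0.32, adjusted p = 0.0659) and Barhl1 (0.09, adjusted p = 0.664) were not called. Lmx1b thus lay above no Dex at day 2 and below it at days 4 and 6.

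The fourth comparison set the Dex cultures against WT, with the WT libraries of the first comparison. At day 0, 2 of 7 genes were called, against 49.8% of all tested genes, with En2 higher (0.40) and Dmbx1 lower (-0.31). At day 2 Lmx1b alone was called, higher with Dex (0.37), against 29.4% of all genes. The En2 call of day 0 and the Lmx1b call of day 2 were lost with the compared groups alone (adjusted p = 0.168 and 0.116). At day 4 all 7 were called, against 44.7% of all genes, 6 higher and Lmx1b lower. En1 was higher by 1.59 ± 0.10 on the log2 scale (SE, adjusted p = 1.13e-10), Dmbx1 by 0.71 ± 0.05 (adjusted p = 2.73e-09) and Lmx1a by 0.54 ± 0.07 (adjusted p = 1.63e-06). Lmx1b was at -0.52 ± 0.08 (adjusted p = 1.63e-05). Barhl1 (0.29) and En2 (0.25) were nearer the threshold, at adjusted p = 0.028 and 0.0386, and both lost the call without either WT day 4 library or without the second Dex day 4 library. At day 6, as description, Dmbx1 with Dex was 12.9 times its WT level, against 48.6 times without Dex, and En2 was at 0.178 times its WT level.

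Steps between days were tested within each culture. From day 0 to day 2, WT had 2 genes higher and 3 lower, against 63.4% of all genes called, with Lmx1b up by 0.62 and En2 down to a difference of -0.56. KO had 3 higher and 1 lower (65.6% of all genes called), no Dex 0 higher and 2 lower (67.9%), and Dex 1 higher and 2 lower (60.6%). En2 fell in all 4 cultures over this step, by 0.56 in WT and 1.01 with Dex on the log2 scale at the extremes. From day 2 to day 4, WT had 1 higher and 3 lower (59.9% of all genes called), and the gene that rose was Lmx1b, by 3.17 ± 0.08 (SE, adjusted p = 3.19e-17). KO had 6 higher and 1 lower (64.2%), no Dex 5 higher and 1 lower (60.8%), and Dex 6 higher and 1 lower (66.7%), En2 being the 1 lower in each. Dmbx1 fell by 0.14 over this step in WT, a call lost with the compared groups alone (adjusted p = 0.0615), while it rose by 3.04 in KO, 1.99 without Dex and 0.60 with Dex. From day 4 to day 6, no Dex had 4 higher and 2 lower (67.9% of all genes called) and Dex 4 higher and 3 lower (65.1%). The 4 that rose were Dmbx1, Lmx1a, Barhl1 and Barhl2 in both. Barhl2 rose by 4.31 ± 0.05 without Dex (SE, adjusted p = 1.93e-22) and by 2.77 ± 0.05 with it (adjusted p = 1.49e-19). En1 fell by 1.84 without Dex and 1.52 with it, and Lmx1b fell by 2.81 without Dex and fell by 2.45 with it.

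Likeness between the genes was described by Pearson's r over the 16 group means, which share libraries, lines and days, with no test. Lmx1a and Barhl2 were most alike (r = 0.96, n = 16 groups), and Dmbx1 and Barhl1 next (r = 0.95). Dmbx1 correlated at 0.87 with Lmx1a and at 0.79 with Barhl2. En1 and Lmx1b were alike at 0.74. Paralogs were not the closest partners: Barhl1 and Barhl2 had r = 0.77, Lmx1a and Lmx1b 0.1, and En1 and En2 -0.38.

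**Figure D3:**
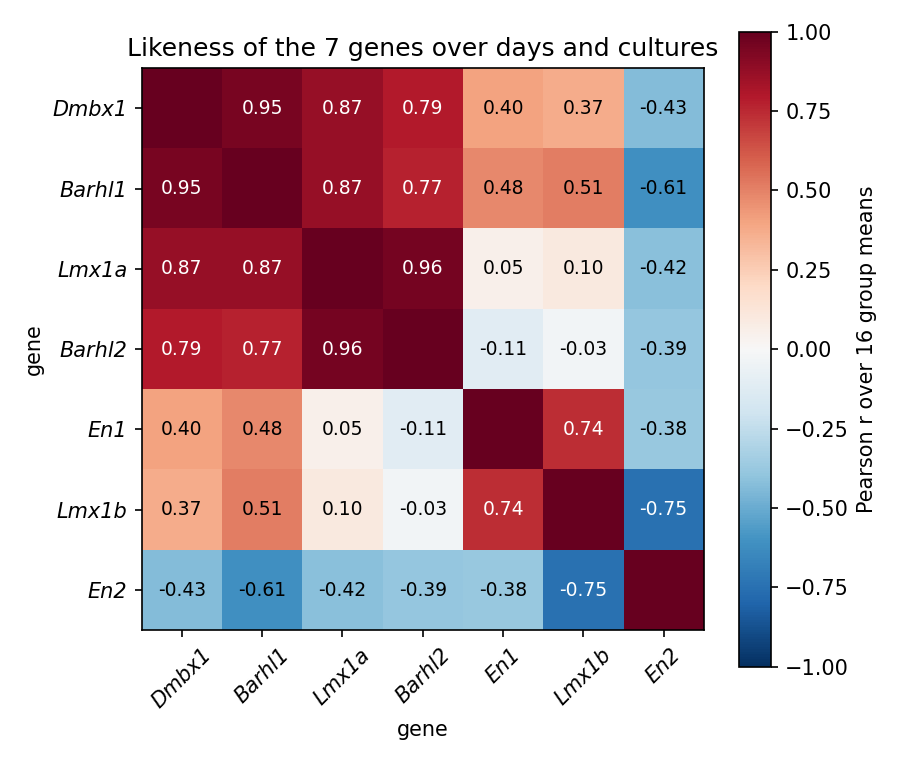
Each cell gives Pearson's r between 2 of the 7 genes (x and y axes) over 16 group means of log2(FPKM + 1), from blue at -1 to red at 1. Dmbx1, Barhl1, Lmx1a and Barhl2 form a block with r from 0.77 to 0.96, and En2 is negative against each of the other 6 genes.

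Among 13614 tested protein-coding genes, the one most like Dmbx1 was Irx2, an Iroquois homeobox gene of the developing brain (r = 0.988 over 16 groups). Irx2 reached 103 FPKM in KO, 35.2 FPKM without Dex and 7.92 FPKM with Dex at day 6, against 1.95 FPKM in WT. The next were Olfr1353 (0.969), Vmn2r57 (0.964), Amigo2 (0.96) and Irx1 (0.95), of which Olfr1353 and Vmn2r57, receptor genes of the olfactory and vomeronasal systems, stayed at or below 1.2 FPKM. For Barhl1 they were Ddn (0.965), Irx1 (0.964) and Wnt1 (0.956), the last a signal of the dorsal midbrain and isthmus. Those most like Barhl2 were Mamld1 (0.997), Rspo2 (0.991), a secreted enhancer of Wnt signalling, and Elavl4 (0.991), a neuronal RNA-binding protein. Nearest to Lmx1a were Sox10 (0.984), a neural crest factor, Dlx2 (0.978) and Wnt3a (0.978). For En1 they were Adamts8 (0.903), Syt17 (0.872) and Ripk2 (0.87), for Lmx1b they included Helz2 (0.941) and Shisal1 (0.929), and for En2 Klf3 (0.97), Foxr1 (0.933) and Nodal (0.927), a signal of early embryonic cells.

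Genes known from the same brain regions were followed in lists. Over all tested genes, 36.5% were higher and 24% lower in KO than in WT at day 4, and 23.8% were higher and 19% lower with Dex than without it at day 6. In the diencephalon list, 9 of 10 genes were tested, and 6 were higher and 2 lower in KO than in WT at day 4, with a median difference of 1.14 against 0.06 over all genes. The Iroquois genes led, with Irx1 higher by 3.55 and Irx2 by 2.72 on the log2 scale. Irx3 (4.10) and Irx5 (4.48) were higher still. Both lie on chromosome 8, where tested genes had a median difference 0.28 above that of other genes in the same comparison. Lhx5, a LIM-homeodomain gene of the forebrain, was lower (-1.74). With Dex at day 6, 6 of 9 were lower and none higher than without Dex, with a median of -1.22 against 0.01 over all genes. These 6 were Irx1 (-1.77), Irx2 (-2.02), Irx3 (-1.24), Irx5 (-1.44), Lhx9 (-0.93) and Wnt3 (-1.22), while Otx1, Lhx5 and Tcf7l2 were not called. Lhx9 had means of at least 1 FPKM, the filter's level, only in KO (2.135 FPKM) and without Dex (1.795 FPKM) at day 6. It was thus tested only through groups where it was high, which favors a lower value with Dex.

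The dorsal midbrain and pretectum list had 6 of 8 genes tested. At day 4, 4 were higher in KO than in WT, namely Pax3 (1.34), Pax7 (0.64), Meis2 (2.18) and Tal2 (1.29), and Sox14 was lower (-0.39). With Dex at day 6, Pax3 (-2.09), Pax7 (-1.51) and Tal2 (-1.58) were lower, and Meis2 (0.52) and Sox14 (0.67) higher, so the list split. Its medians were 0.97 at day 4 and -0.66 at day 6, against 0.06 and 0.01 over all genes. Pax3 and Pax7, paired-box genes of the dorsal neural tube, were at means of 32.9 and 16.7 FPKM in KO at day 6.

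In the isthmic organizer list all 10 genes were tested. At day 4, 3 were higher in KO than in WT and 2 lower, 5 of 10 against 60.5% of all genes called, with Wnt1 at 2.46 and Pax2 at 0.62, but Fgf8, the organizer's main signal, at -0.63. With Dex at day 6, 1 was higher and 6 were lower than without it. Wnt1 (-1.32) and Fgf8 (-1.65) were among the lower, as were Otx2 (-0.29), Gbx2 (-0.29) and Cnpy1 (-0.52), and Pax2 was the 1 higher (1.82). Fgf8 was highest without Dex at day 6 (14.6 FPKM, against 4.81 FPKM in WT, 3.325 FPKM in KO and 3.945 FPKM with Dex), while Wnt1 was highest in KO. Pax2 was highest in WT on that day, the reverse of its day 4 difference. Its day 6 means were 39.5 FPKM in WT, 0.38 FPKM in KO, 0.3 FPKM without Dex and 3.61 FPKM with Dex. The medians were 0.11 and -0.29, against 0.06 and 0.01 over all genes. Cnpy1, which lies 28653 bases from En2, shared its fall from stem cells, from 45.6 FPKM at day 0 to 1.07 FPKM at day 4 in WT means.

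Roof plate genes were all tested (9 of 9). At day 4, 4 were higher and 1 was lower in KO than in WT, 5 of 9 against 60.5% of all genes called, with Rspo1 at 1.44 and Msx2 at 1.11. With Dex at day 6, 1 was higher and 6 were lower, among them Zic1 (-0.65), Wnt8b (-0.65) and Rspo3 (-1.23), and Msx2 was the 1 higher (1.06). Wnt8b (45.6 FPKM) and Rspo3 (35 FPKM) with Dex were still above their WT (7.83 and 3.98 FPKM) and KO means (5.75 and 9.38 FPKM). Without Dex they were at 72 and 83.7 FPKM. The other lower genes, Zic1 among them, were highest in KO. The roof plate medians were 0.19 and -0.65, against 0.06 and 0.01 over all genes. The floor plate and dopaminergic list had 4 of 10 genes tested. At day 4, 2 were lower in KO than in WT and none higher, Foxa2 (-1.11) and Neurog2 (-1.95), 2 of 4 against 60.5% of all genes called. Foxa2 lay higher in WT already in stem cells, at a mean of 0.905 FPKM against 0.1 FPKM in KO. On that day 4 of 5 extraembryonic endoderm markers, followed below, were also lower in KO, against 29.8% of all genes. With Dex at day 6 the same 2 were higher, Foxa2 by 0.52 and Neurog2 by 0.81. The list's medians were -0.59 and 0.31, against 0.06 and 0.01 over all genes. In all 16 groups Th and Slc6a3, which define dopaminergic neurons, had means of at most 0.315 and 0.07 FPKM, and Shh and Corin, which define the floor plate, of at most 0.245 and 0.105 FPKM.

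**Figure D4:**
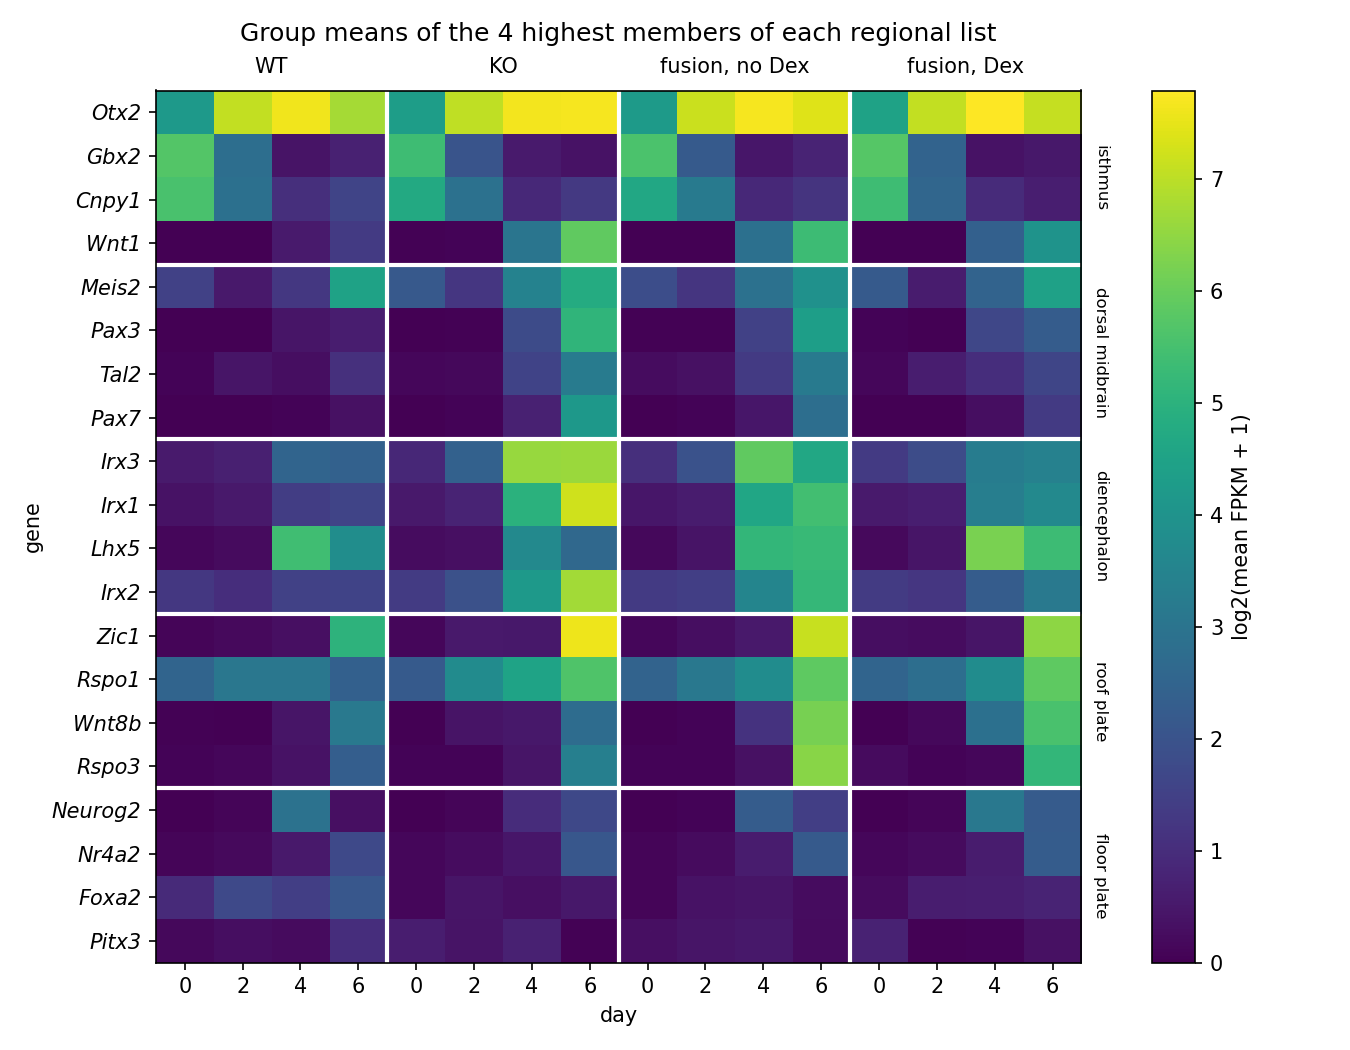
Rows are the 4 genes of highest mean FPKM in each of the 5 regional lists, columns are days 0 to 6 within each culture, and color gives log2(mean FPKM + 1) of 2 libraries. Irx1, Irx2, Wnt1, Pax3 and Pax7 have their highest means in KO at day 6, and Foxa2 stays at or below 0.41 FPKM in KO.

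Markers of other cell types also differed between the cultures, some in the direction of the 7 genes and some in the opposite direction. Their part in the results was not tested. The counts between Dex and no Dex at day 6 stand against 42.7% of all genes called, 23.8% higher and 19% lower. At day 6 the summed level of 6 early neuron markers was 47.32 to 49.69 FPKM in WT, 311.25 to 315.41 FPKM in KO, 255.31 to 255.51 FPKM without Dex and 152.23 to 153.48 FPKM with Dex, and all 6 were lower with Dex than without. Tubb3, on chromosome 8 as Irx3 and Irx5 are, made up most of that sum in each culture. Its day 6 means were 29.2 FPKM in WT, 266 FPKM in KO, 212 FPKM without Dex and 134 FPKM with Dex. That sum was also high in stem cells (296.66 to 340.72 FPKM over all lines), mainly through Tubb3 and Stmn2. Dcx, also among the 6, had means of at least 1 FPKM, the filter's level, only in KO (1.49 FPKM) and without Dex (1.34 FPKM) at day 6. Of 5 neural crest markers 4 were lower with Dex, with sums of 2.98 to 3.21 FPKM in WT, 46.45 to 47.07 FPKM in KO, 52.11 to 52.66 FPKM without Dex and 19.9 to 20.76 FPKM with Dex. Of 7 eye field markers 6 were higher with Dex and none lower, with sums of 652.26 to 686.34 FPKM in WT, 118.01 to 118.91 FPKM in KO, 182.7 to 186.86 FPKM without Dex and 420.63 to 420.75 FPKM with Dex. Pax6, the 1 not called (-0.03) and not restricted to the eye, made up most of the sums in KO and without Dex. Its means were 110 FPKM in WT, 112 FPKM in KO, 154 FPKM without Dex and 151 FPKM with Dex. The list drawn up for the rhombic lip had 4 genes, of which 2 were tested. Nhlh1 (-1.35) and Nhlh2 (-1.10) were both lower with Dex. Sums of the 4 were 0.67 to 0.76 FPKM in WT, 14.74 to 15.73 FPKM in KO, 9.6 to 9.61 FPKM without Dex and 2.99 to 3.28 FPKM with Dex. Nhlh1 and Nhlh2 made up most of the KO sum, at means of 10.6 and 3.705 FPKM. Nhlh2 had means of at least 1 FPKM, the filter's level, only in KO and without Dex (2.495 FPKM) at day 6. Atoh1, which defines the rhombic lip, was untested, with day 6 means of at most 0.28 FPKM, so these sums are no measure of that region. Of 5 telencephalon markers 4 were tested, of which 2 were higher with Dex, Emx1 (1.03) among them, with sums of 97.55 to 102.12 FPKM in WT, 12.23 to 14.25 FPKM in KO, 78.51 to 78.72 FPKM without Dex and 108.48 to 109.12 FPKM with Dex. None of 4 neural progenitor markers was called between Dex and no Dex at day 6 by limma, with sums of 417.53 to 430.98 FPKM with Dex and 422.09 to 422.69 FPKM without.

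Between WT and KO, 5 extraembryonic endoderm markers were all lower in KO at day 4, with sums of 22.1 to 23.07 FPKM in WT and 1.61 to 1.73 FPKM in KO. Afp was at 0 in every group mean of KO and the fusion line at day 6. Of 5 pluripotency markers, 4 were lower and Nanog higher in KO at day 4, and 4 were lower and Esrrb higher with Dex than without it on that day. Over all tested genes at day 4, 60.5% were called between KO and WT, 36.5% higher and 24% lower in KO. Between Dex and no Dex 40.2% were called on that day, 18.3% higher and 21.9% lower with Dex. The pluripotency sums at day 4 were 434.73 to 440.42 FPKM in WT, 239.57 to 244.49 FPKM in KO, 249.07 to 253.4 FPKM without Dex and 107.54 to 110.01 FPKM with Dex. Hindbrain markers summed to at most 5.32 FPKM at day 6, in KO, with Hoxb1 at 0 there. The 4 surface ectoderm markers were too low to test, at sums of at most 0.75 FPKM in any library.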

How the data were processed

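The authors deposited 1 table of FPKM for 55492 rows and 32 libraries, the unit being taken from the table's name and values. The submitters' processing notes name STAR, Cuffdiff and the mm10 build, with no versions. Read strand handling is not given in the sources used here. Every column was matched to a sample by its title. All 32 libraries carry the same batch label. Per the labels' protocols, the libraries of a duplicate were made and sequenced in different rounds, and the labels do not tie a replicate number to a round.

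Depth was estimated from genes with 1 transcript of 600 to 1200 bases, whose low values came within 0.2 fragments of a whole number in 88.5% to 91.6% of cases (40.0% by chance). Limits in fragments cover counting error only. limma 3.58.1 in R 4.3.3 was run on log2(FPKM + 1) for 16276 genes with at least 1 FPKM in at least 2 libraries, as 1 fit of 16 group means (16 residual degrees of freedom, trended variance), two-sided, and was tested on simulated data. Alternatives were a pseudocount of 0.1, other filters, median-of-ratios rescaling, the compared groups alone, the replicate block, a log2 difference of at least 1, and leaving out each library.

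The 7 genes and all lists were chosen with earlier results of these data known. Named genes are the 7, the 5 protein-coding genes most like Dmbx1 and the 3 most like each other member, up to 4 highest-level genes of each regional list with any a count singles out, and markers at 0; some genes of the likeness rule and the marker lists are not reported here. Promoters come from RefSeq. No protein sequences were used here.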

Additional observations from a re-analysis of the deposited data

Results flagged for a closer look

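The difference between Dex and no Dex was not the same at day 4 and day 6 for 5 of the 7 genes, by the interaction term in limma (Benjamini-Hochberg adjusted over 16276 genes). That term was called for 41.2% of all tested genes. On the log2(FPKM + 1) scale, the day 6 difference minus the day 4 difference was -1.54 for Barhl2 (adjusted p = 4.02e-12), -0.98 for Lmx1a (adjusted p = 8.51e-08) and -0.40 for En2 (adjusted p = 0.0231), genes that were not called at day 4 and were lower with Dex at day 6. These genes had means of at most 0.64 FPKM in the fusion line at day 4, where this scale leaves little room for a difference. The En2 call was lost without any 1 of 4 of its 8 libraries (adjusted p from 0.0627 to 0.106). For Dmbx1, lower with Dex on both days, it was -0.28 (adjusted p = 0.00528). With a pseudocount of 0.1 it was 0.22 (adjusted p = 0.414), and the ratio of mean FPKM was 4.73 at day 4 and 3.78 at day 6. The Dmbx1 call was also lost with the compared groups alone (adjusted p = 0.0723). For Lmx1b, also lower with Dex on both days, it was 0.36 (adjusted p = 0.0112), the difference being larger at day 4, and it was not called with a pseudocount of 0.1 (adjusted p = 0.507).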

How the results depend on the processing

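With a pseudocount of 0.1 the Dmbx1 change of the Dex difference from day 4 to day 6 turned from -0.28 to 0.22 and was not called; it was the only reversal of a called member difference. Counts of called genes among the 7 moved as follows. With the compared groups alone they were 1 for KO against WT and for Dex against WT at day 0, and 0 at day 2 for no Dex against KO and for Dex against WT, and at day 0 for Dex against no Dex. With a pseudocount of 0.1 they were 5 for KO against WT at day 2, 1 and 0 at day 0 for no Dex against KO and for Dex against no Dex, and 3 for the change of the Dex difference. With no filter they were 0 at day 2 for no Dex against KO, 0 at day 0 for Dex against no Dex, and 2 for KO from day 0 to day 2. Rescaling gave 2 for no Dex against KO at day 0. Asking for a log2 difference of at least 1 gave, for days 0, 2 and 4, 0, 0 and 3 in KO against WT and 0, 0 and 1 in Dex against WT. It gave 0, 0, 2 and 3 in Dex against no Dex on days 0, 2, 4 and 6, and 0 and 1 in no Dex against KO on days 2 and 4. By that rule the steps to day 2 held 0 genes in WT, KO and no Dex and 1 with Dex, those to day 4 held 2 in WT and 2 with Dex, and the change of the Dex difference held 1.

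Leaving out 1 library gave 0 to 1 genes for Dex against no Dex at day 0, 1 to 3 for Dex against WT at day 0, 3 to 6 for the change of the Dex difference, 1 to 3 for KO from day 0 to day 2 and 0 to 1 for no Dex against KO at day 2. A lone library is then assumed to vary like the other groups. En1 lost its call in no Dex against KO at day 2 without KO library 2 or no Dex library 1 (-0.22 each). En2 lost its call in Dex against WT at day 0 without WT library 1 (0.20) and its day 0 call between Dex and no Dex without no Dex library 1 (-0.15) or either Dex library. The change of the Dex difference held 3 genes without no Dex day 6 library 1. In KO, En1 lost its day 2 rise without day 0 library 1 or day 2 library 2, and the calls of Lmx1b and Barhl2 at day 2 and of Barhl2 at day 4 were lost without any 1 of their 4 libraries. In WT, Barhl1 at day 2 was lost without any 1 of 4, and Dmbx1 at day 4 without day 2 library 1 or either day 4 library. En2 lost its fall with Dex at day 6 without Dex day 4 library 2 or Dex day 6 library 1, and the change of its Dex difference without no Dex library 1 of day 4 or day 6, Dex day 4 library 2 or Dex day 6 library 1. Lmx1b lost the latter without no Dex day 6 library 1. Lost with the compared groups alone were also the fall of En2 in WT by day 2 and with Dex by day 6 (adjusted p = 0.0634 and 0.0767). All 7 calls of KO against WT at day 4 and of Dex against no Dex at day 6 held without each library in turn.

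The replicate block changed no call, as in Dex against no Dex at day 6, where it also called 7. Same-numbered libraries did not deviate together (r from -0.09 to 0.13 between 120 pairs of groups). This shows no shared shift by number and cannot show whether the number pairs libraries. Over all genes, the compared groups alone called 3357 for KO against WT at day 0 (7849 in the full fit), 3941 at day 2 and 2284 at day 4 for no Dex against KO (6027 and 4339), and 4342 and 2603 for Dex against WT at days 0 and 2 (8106 and 4782). Asking for a log2 difference of at least 1 left 38 to 2043 genes over the 24 comparisons, against 4339 to 11055 as called. Rescaling moved the share of calls that were higher from 63.8% to 50.6% and 60.3% to 49.7% for KO against WT at days 2 and 4, and from 62.9% to 48.2% and 28.7% to 50.1% for Dex against no Dex at days 0 and 2. It moved the share from 39.3% to 57.3% and 36.3% to 51.9% for no Dex against KO at days 0 and 4, from 38.2% to 49.2% for Dex against WT at day 0, and from 61% to 46.8% and 61.3% to 47.8% for the steps to day 2 without Dex and to day 4 with it. Depth limits Barhl2 before day 6, at about 1 to 17 fragments a library.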
